A study of Mus musculus with 21 samples.

Results

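The transcripts described here were at 1 TPM or more, a share of the library's transcripts that is scaled for length, in both sperm libraries and both 1-cell embryo libraries, and under 1 TPM in both oocyte libraries. The rule found 400 of the 22612 transcripts in the merged long-read annotation of mouse sperm, oocytes and preimplantation embryos. Sperm, oocyte and 1-cell TPM chose the members, so those values are given as a description without a test. They do not show where an RNA was made.

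The study sequenced full-length cDNA on a long-read platform to build the transcript models, and sequenced cDNA of the same stages with short reads to measure them. Each of 7 stages had 2 short-read libraries, giving 14, and 1 long-read pool. Sperm came from the epididymis of DBA/2J males, although a protocol text names DBA/2N. MII oocytes were taken 20 h after hCG from C57/BL6J females aged 3 to 5 weeks that had received 7.5 IU PMSG and 7.5 IU hCG. Embryos had a DBA/2J father and a C57/BL6J mother, and were grown in KSOM medium. They were collected at 24 to 26 h after hCG for the 1-cell stage, 46 to 48 h for 2-cell, 54 to 58 h for 4-cell, 68 to 70 h for 8-cell and 94 to 96 h for blastocyst. The labels name no genetic modification. Both libraries of a stage were separate batches of pooled embryos according to the methods, so p-values measure the spread between batches. In such bulk samples, fewer cells and less RNA per cell cannot be told apart.

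At fertilisation, the egg brings a large store of maternal mRNA, and the sperm a small and partly fragmented RNA load. Transcription from the new embryonic genome starts weakly in the 1-cell embryo and strongly at the 2-cell stage in the mouse, while maternal mRNA is degraded. A transcript seen in sperm and 1-cell embryos and under 1 TPM in oocytes can thus come from any of these sources. TPM values do not separate them.

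Promoters of the leading transcripts are shown because the measured RNAs begin in them. The windows are from RefSeq (build GRCm38.p6), cover 300 bases each and are written 5′ to 3′ on the strand of the gene. Capitals mark the bases from the start of the measured transcript onward. The list holds the highest multi-exon members in 1-cell embryos whose start falls in a window. Sp110, Ppp2r5c and Nifk begin before the RefSeq start, as does Chtop, and Tmem120b begins on it.
Sp110, chr1:85603842-85604141: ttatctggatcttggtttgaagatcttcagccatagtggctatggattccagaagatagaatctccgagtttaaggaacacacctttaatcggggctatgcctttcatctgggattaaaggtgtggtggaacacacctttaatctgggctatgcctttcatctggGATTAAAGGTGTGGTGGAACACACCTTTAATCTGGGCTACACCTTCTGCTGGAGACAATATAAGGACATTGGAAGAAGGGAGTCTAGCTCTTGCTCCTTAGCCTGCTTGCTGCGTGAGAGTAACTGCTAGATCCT
Ppp2r5c, chr12:110485547-110485846: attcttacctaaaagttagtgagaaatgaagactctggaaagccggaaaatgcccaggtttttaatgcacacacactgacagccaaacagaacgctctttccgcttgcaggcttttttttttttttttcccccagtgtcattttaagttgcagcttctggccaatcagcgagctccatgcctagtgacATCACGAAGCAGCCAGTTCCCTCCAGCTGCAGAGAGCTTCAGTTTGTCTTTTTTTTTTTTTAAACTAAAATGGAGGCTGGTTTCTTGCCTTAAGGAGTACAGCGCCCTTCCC
Tmem120b, chr5:123076025-123076324: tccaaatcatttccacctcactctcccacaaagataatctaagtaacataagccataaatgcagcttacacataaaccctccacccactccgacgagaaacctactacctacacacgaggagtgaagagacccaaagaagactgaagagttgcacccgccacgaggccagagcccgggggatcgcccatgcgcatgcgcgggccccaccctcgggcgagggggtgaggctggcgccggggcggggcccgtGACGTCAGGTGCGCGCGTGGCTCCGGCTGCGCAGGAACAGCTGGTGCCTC
Nifk, chr1:118321593-118321892: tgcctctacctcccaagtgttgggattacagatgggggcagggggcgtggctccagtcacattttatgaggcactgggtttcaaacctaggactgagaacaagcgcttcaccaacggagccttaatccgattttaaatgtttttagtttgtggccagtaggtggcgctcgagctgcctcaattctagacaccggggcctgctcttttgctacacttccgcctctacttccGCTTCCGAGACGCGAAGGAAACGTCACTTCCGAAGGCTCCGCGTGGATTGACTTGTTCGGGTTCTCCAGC
Chtop, chr3:90509449-90509748: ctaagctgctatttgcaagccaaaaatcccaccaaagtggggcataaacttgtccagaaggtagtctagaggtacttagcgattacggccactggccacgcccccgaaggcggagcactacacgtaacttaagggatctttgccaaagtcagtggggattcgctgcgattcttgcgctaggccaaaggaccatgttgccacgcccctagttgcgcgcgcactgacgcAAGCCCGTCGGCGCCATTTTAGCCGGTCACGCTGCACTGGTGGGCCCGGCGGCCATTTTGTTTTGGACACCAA

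In all, 181 members began inside such a window, over 194 distinct windows. The letters TGACGTCA, the palindromic cyclic AMP response element, were in 14 of the 194 member windows (7.22%). They were in 3.78% of the 5879 windows that hold the start of any merged transcript and in 1.79% of all 32851 windows. Among the printed promoters, Tmem120b holds it across its start. GGGCGG, read on both strands as were all 4 motifs, was in 60.3% of member windows and 59.8% of windows with a merged transcript, against 35.7% of all windows. CCAAT was in 45.4% of member windows, 42.3% with a merged transcript and 37.4% of all. TATAAA was in 8.76%, 8.47% and 13.6%. The last 3 shares were close to those of other transcripts of these samples, and median GC content was also close, at 60.7% and 59.3%. No test was made of these shares, and a match is not a bound site.

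The members were mostly ordinary spliced genes. Of the 400, 344 overlapped an exon of an annotated gene on the same strand, under 340 names, and 321 (80.2%) belonged to protein-coding genes, against 74.2% of all merged transcripts. Exact matches to an annotated transcript made up 206 (51.5%), against 36.3% of all. New isoforms numbered 75, transcripts contained in an annotated one 52, transcripts of loci without annotation 31 and those inside an intron 21. The median length was 1254 bases and the median number of exons 5, against 1247 bases and 4 for all merged transcripts. Exons of another gene on the opposite strand overlapped 83 members (20.8% against 15.1%). The short-read libraries do not keep strand, so reads of the partners cannot be told apart.

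None of the members belonged to 5 chosen lists of sperm and spermatid genes. The lists do not hold every such gene, so other genes of these cells can be among the members. These lists (protamines and transition proteins, flagellum, acrosome, germline energy metabolism, spermatid RNA binding) had 114 merged transcripts. Of these, 71 were at 1 TPM or more in both sperm libraries and under 1 in both oocyte libraries, and 0 of the 71 reached 1 TPM in both 1-cell libraries. Of all 4873 merged transcripts with such sperm and oocyte values, 8.21% did. The difference was not tested. Prm1, the main sperm chromatin protein together with Prm2, was at 1842 and 6156 TPM in sperm, and at 0 and 0.358 in 1-cell embryos. Odf1, an outer dense fibre protein of the tail, was at 485 and 7373 TPM in sperm and at 0 and 0.698 in 1-cell embryos. Smcp, of the mitochondrial capsule, was at 3313 and 418 TPM in sperm and 0 in both 1-cell libraries. Prm2 reached 15.2 TPM in 1 of the 1-cell libraries and 0.576 in the other, from 9070.5 and 869 in sperm. Some other genes of these lists were higher in 1-cell embryos. Spa17, a sperm surface and tail protein, was at 18.7 and 3.52 TPM in 1-cell embryos and 1.01 and 1.04 in oocytes, and Ddx25, an RNA helicase of spermatids, at 6.92 and 3.47 and 0.667 and 1.61. Values of genes from the lists are summed over their transcripts, and the genes named were chosen after their values were seen.

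The sperm libraries also held RNA of other cells. The 17 transcripts of 8 blood cell genes summed to 79517 and 20904 TPM in sperm and to 3.92 and 6.71 in 1-cell embryos. Most of the sperm sum was Cd74 alone, at 71096 and 14459 TPM. Lyz2 was at 6151 and 1519 TPM in sperm, and Ptprc at 35.2 and 7.07. The epididymal and testis somatic list summed to 2386 and 427 TPM in sperm and to 5.1 and 3.15 in 1-cell embryos, with Crisp1, a secreted epididymal protein, at 2006 and 335 TPM in sperm. The 15 oocyte genes summed to 27.8 and 29.1 TPM in sperm and to 8054 and 5699 in 1-cell embryos. The part of these cells in the sperm values of the members was not tested.

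Most members were low in 1-cell embryos. The median was 11.7 and 12.6 TPM in sperm, 0.33 and 0.395 in oocytes and 2.98 and 1.92 in 1-cell embryos. In 250 members the lower 1-cell value was under 2 TPM, and in 22 it was at least 5. In oocytes 45 members were at 0 in both libraries, while 237 had a value of 0.5 or more. The 1-cell mean was above the sperm mean in 46 members, and the median ratio of the 1-cell to the sperm mean was 0.186. At the edge of the 1-cell threshold, Zfp110 was kept at 1.0005 TPM. At the oocyte threshold, Rpl41 was kept at 0.99961 and Atxn10 left out at 1.0026. At the sperm threshold, Rhoh was kept at 1.0288 and Topbp1 left out at 0.99864.

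**Figure D1:**
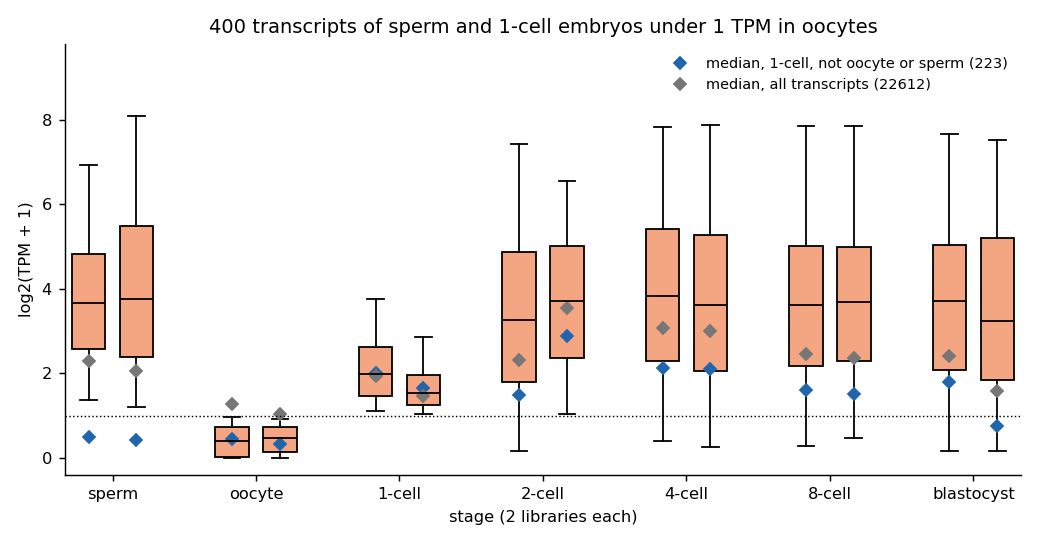
Boxes show log2(TPM + 1) of the 400 transcripts in each of the 14 short-read libraries, with medians as black lines, quartiles as box ends and the 5th and 95th percentiles as whiskers. Diamonds give the medians of the 223 transcripts found in 1-cell embryos but in neither oocytes nor both sperm libraries, and of all 22612. The dotted line is 1 TPM, and by the rule the boxes lie below it in oocytes. From 2-cell on the black lines lie above the grey diamonds, while the boxes reach below these in all but blastocyst replicate 2.

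The share of transcripts that reached the 1-cell threshold differed by sperm level. Of 4873 transcripts at 1 TPM or more in both sperm libraries and under 1 in both oocyte libraries, 400 (8.21%) reached it, and 4473 did not. Of 4368 transcripts equally low in oocytes but not at 1 TPM in both sperm libraries, 223 (5.11%) reached it. The 4473 include 518 at 1 TPM or more in 1-cell replicate 1 and 170 in replicate 2. The 223 include 60 at 1 TPM or more in sperm replicate 1 and 40 in replicate 2. By the lower sperm value, the share was 6.96% of 3493 transcripts between 1 and 10 TPM, 11.4% of 1249 between 10 and 100 TPM, and 15 of 131 (11.5%) at 100 TPM or more. In the opposite direction, 54 transcripts at 1 TPM or more in both sperm and both oocyte libraries were under 1 in both 1-cell libraries. These shares are counts along the rule itself and were not tested.

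The absence from oocytes did not hold for every locus of the merged annotation. Of the members, 247 were the only transcript of their locus, so the rule itself put their locus under 1 TPM. In 302 members, these 247 included, the summed TPM of all transcripts of the locus was under 1 in both oocyte libraries. The other 98 were isoforms of loci with 1 TPM or more in an oocyte library, and for 20 members the locus had 10 TPM or more in both.

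Sp110, a nuclear body protein expressed in leukocytes, led the list in 1-cell embryos with a new isoform of 13 exons (chr1:85576902-85603976, minus strand, mm10). It was at 55.3 and 13 TPM in 1-cell embryos, 0.0408 and 0 in oocytes and 58.8 and 2.48 in sperm. Its locus as a whole was at 114 and 191 TPM in oocytes, so the locus itself was present there. Ppp2r5c, a regulatory subunit of protein phosphatase 2A, was likewise a new isoform, at 30.4 and 11.3 TPM in 1-cell embryos against 0.289 and 0 in oocytes (chr12:110485735-110571689, plus strand). Its locus had 31 and 32 TPM in oocytes. For both, the difference between oocytes and 1-cell embryos was therefore one of isoform, as assigned by the authors' quantification. Fau, a ribosomal protein made as a fusion with a ubiquitin-like protein, was at 20.2 and 4.86 TPM in 1-cell embryos against a locus sum of 7.04 and 17.3 in oocytes.

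Nifk and Tmem120b were under 1 TPM in both oocyte libraries also as whole loci. Nifk, a nucleolar protein that binds Ki-67, had 0.995 and 0.465 TPM in oocytes, 22.4 and 10.3 in 1-cell embryos and 7.01 and 1.68 in sperm (chr1:118321823-118333831, plus strand). Its values then were 35.1 and 69.7 TPM at 2-cell, 176 and 151 in 4-cell embryos, 104 and 76.3 at 8-cell, then 82 and 36.1 in blastocysts. Every library from 1-cell on was above both sperm libraries. Tmem120b, a membrane protein, had 0.0977 and 0.658 TPM in oocytes, 16.5 and 23.4 in 1-cell embryos and 184 and 6.42 at 2-cell, where the libraries differed widely (chr5:123076275-123117331, plus strand). It lies opposite to exons of Rhof. The Chtop locus, in contrast, was at 1.56 and 7.36 TPM in oocytes. Its member, from a factor of mRNA export, had 16.6 and 14.3 TPM in 1-cell embryos, 1.81 and 16.1 in sperm and 0.223 and 1.02e-04 in oocytes (chr3:90498957-90509521, minus strand).

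Short and repeated sequences also stood among the highest members, and their values are less certain. Rnu1a1, a U1 small nuclear RNA gene of 165 bases and one of many near-identical copies, was at 24.2 and 3.05 TPM in 1-cell embryos and 26.6 and 434 in sperm. The member in Rnf121, a ubiquitin ligase gene, was a single exon of 111 bases at 16.8 and 17.7 TPM in 1-cell embryos. Gm10184, an intronless gene, was at 22.1 and 9.95 TPM. Rps2-ps10, a processed copy of the ribosomal protein gene Rps2, had 128 and 1216 TPM in sperm, 0 in both oocyte libraries and 3.34 and 3.59 in 1-cell embryos. Reads from such copies can be divided among parent and copy by the quantification, and 9 members were pseudogenes.

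The 5 members with the highest mean in sperm were lower in both 1-cell libraries than in either sperm library. One of them, Rps2-ps10, was also among the highest members at blastocyst. An Alad isoform, from an enzyme of heme synthesis, had 3868 and 305 TPM in sperm and 7.49 and 14.4 in 1-cell embryos, and the annotated Alad transcript had 648 and 251 and then 3.44 and 2.43. Saysd1 had 213 and 904 TPM in sperm and 4.4 and 1.88 in 1-cell embryos. An unspliced transcript inside an intron of Lcorl had 25.4 and 1381 TPM in sperm and 2.14 and 1.29 in 1-cell embryos. The sperm libraries disagreed on many members, and 98 (24.5%) differed by over 4-fold in TPM + 1 between them.

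Members without any annotated gene numbered 56. The highest spliced ones in 1-cell embryos lay at chr5:17932153-17941775, plus strand with 4.75 and 6.01 TPM, on an unplaced scaffold with 7.42 and 2.07, at chr11:121905654-121925327, minus strand with 4.89 and 1.52, on a chromosome 1 scaffold with 4.59 and 1.2, and at chr10:22054901-22058574, minus strand with 2.96 and 2. Of these, the transcript on the unplaced scaffold was highest later, at 124 and 179.6 TPM at 2-cell and 154 and 94.3 at blastocyst.

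None of the 17 transcripts of the blood cell list was a member. A few single members known from leukocytes are given here, picked after their values were seen and not as a group that stood out. Fcgr3, a receptor for IgG, had 22 and 30.9 TPM in sperm and 1.02 and 1.67 in 1-cell embryos. Rhoh, a GTPase of blood cells, had 2.98 and 1.03 TPM in sperm and 14.3 and 3.25 in 1-cell embryos, and so was higher in both 1-cell libraries. These genes did not share one order of sperm and 1-cell levels. Hcst, an adaptor of lymphocyte receptors, had 27.5 and 4.88 TPM in sperm and 1.86 and 3.85 in 1-cell embryos. Nckap1l, an actin regulator of blood cells, had 13.5 and 1.53 TPM in sperm and 1.2 and 1.14 in 1-cell embryos. Haemoglobin Hba-a1, which is no member, was at 1803 and 4384 TPM in sperm and at 0.864 and 0.898 in 1-cell embryos. The part of blood cells in the values of these members was not tested.

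Long reads gave a view of the same cDNA as full molecules. The exact exon chain was in the sperm pool for 176 members (44.0%, 95% Wilson interval 39.2% to 48.9%), in the oocyte pool for 6 and in the 1-cell pool for 30 (7.50%). All merged transcripts were at 30.5%, 18.4% and 19.4%. Both the sperm and the 1-cell pool held 5 members. In 194 members the chain was seen in a pool of 2-cell or later embryos but in none of the first 3 pools. The chain was found in the 2-cell pool for 30.0%, in the 4-cell pool for 30.0%, in the 8-cell pool for 32.8% and in the blastocyst pool for 36.8%, against 24.8% to 25.4% of all. The pools mix both cDNA batches and have no replicates, so they are no independent check of the rule, and the interval covers counting error only.

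**Figure D2:**
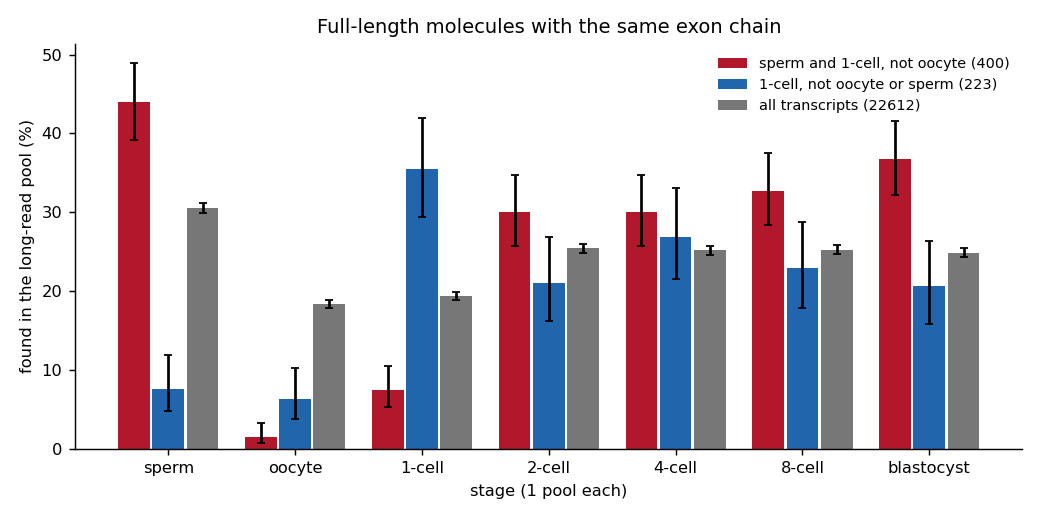
Bars give the share of transcripts whose exon chain was found in the long-read pool of each stage. They are drawn for the 400 transcripts, the 223 of 1-cell embryos not at 1 TPM in both sperm libraries and all 22612. The 95% Wilson intervals cover counting error. For the 400 the bar is 44.0% in sperm and 7.50% in 1-cell embryos, while the 223 reach 35.4% in the 1-cell pool.

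Most members remained measurable to blastocyst. At 1 TPM or more in both libraries were 336 members (84.0%) at 2-cell, 339 (84.8%) in 4-cell embryos, 338 (84.5%) at 8-cell and 331 (82.8%) at blastocyst. Of all merged transcripts, 67.5%, 72.2%, 65.2% and 55.7% met this mark at the same stages. Of the 223 transcripts of 1-cell embryos not at 1 TPM in both sperm libraries, 57.4%, 61.4%, 55.6% and 42.2% did. Of the 4473 sperm transcripts not at 1 TPM in both 1-cell libraries, 48.3%, 58.2%, 55.9% and 47.2% did. In all 8 later libraries at once, 278 members (69.5%) were at 1 TPM or more, against 45.3% of all, and 5 members were under 1 TPM in all 8. Transcripts are not replicates, so the shares were not tested against each other.

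**Figure D3:**
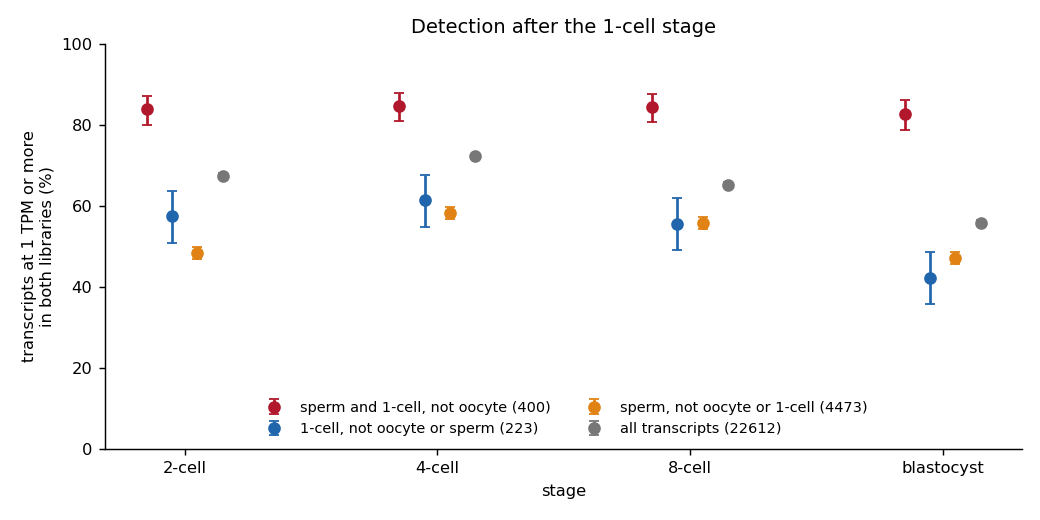
Points show the percentage of transcripts at 1 TPM or more in both libraries of a stage, for 4 groups of transcripts, with 95% Wilson intervals for counting error. The 400 transcripts stay between 82.8% and 84.8%, while the other groups lie between 42.2% and 72.2%.

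Levels of the members from 2-cell on are set here beside those at 1-cell, as a description. The members' median was 8.67 and 12.1 TPM at 2-cell, 13.3 and 11.3 in 4-cell embryos, 11.3 and 11.9 at 8-cell, then 12.2 and 8.4 in blastocysts. Both 2-cell libraries were above both 1-cell libraries in 252 members (63.0%) and below in 24 (6.00%), where all merged transcripts had 40.7% above and 13.5% below. The 4473 sperm transcripts not at 1 TPM in both 1-cell libraries had 64.6% above and 0.984% below. The 223 of 1-cell embryos not at 1 TPM in both sperm libraries had 30.5% above and 21.5% below. The 1-cell libraries served in the rule, so nothing is read from these counts. The summed TPM of the members was 1756 and 1064 in 1-cell embryos and 15703 and 12694 at 2-cell. It reached 33287 and 31803 at 8-cell, or 3.33% and 3.18% of the library.

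The stages that the rule did not use were compared by limma on log2(TPM + 1), over 19242 transcripts at 1 TPM or more in at least 2 of the 8 libraries, of which 382 were members. From 2-cell to blastocyst, 44 members were higher and 33 lower at a Benjamini-Hochberg adjusted p under 0.05. The background was 7.57% of all tested higher and 17.7% lower, and the members' counts were 11.5% and 8.64% of the 382. The 3264 tested sperm transcripts not at 1 TPM in both 1-cell libraries were near the members, at 11.9% higher and 9.10% lower. Of the 181 tested from 1-cell embryos that were not at 1 TPM in both sperm libraries, 3.87% were higher and 21.5% lower. The members' median log2 difference was 0.04 and that of all tested was -0.68. The 2-cell libraries differed from each other far more than those of other stages: the median SD on the log2 scale was 1.02 there, 0.229 in 4-cell embryos, 0.299 at 8-cell and 0.663 in blastocysts. The oocyte genes summed to 218 and 2143 TPM in the 2-cell libraries, and the 2-cell embryo genes to 82.6 and 1062. With the spread weighted by stage, only 10 of the 382 were called, 4 higher and 6 lower, and with the 4 libraries of these stages alone 6 were, 3 in each direction. Over all tested, these fits called 1.22% and 4.15% higher and lower, and 0.592% and 2.45%. Leaving out 1 library also moved the number of called members. The members' median log2 difference then ran from -0.21 to 0.26, and that of all tested from -1.08 to -0.17. Quantile normalization turned the split to 74 higher and 23 lower, where 15.9% and 14% of all tested were, with the median of all tested at 0.06 on the log2 scale.

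**Figure D4:**
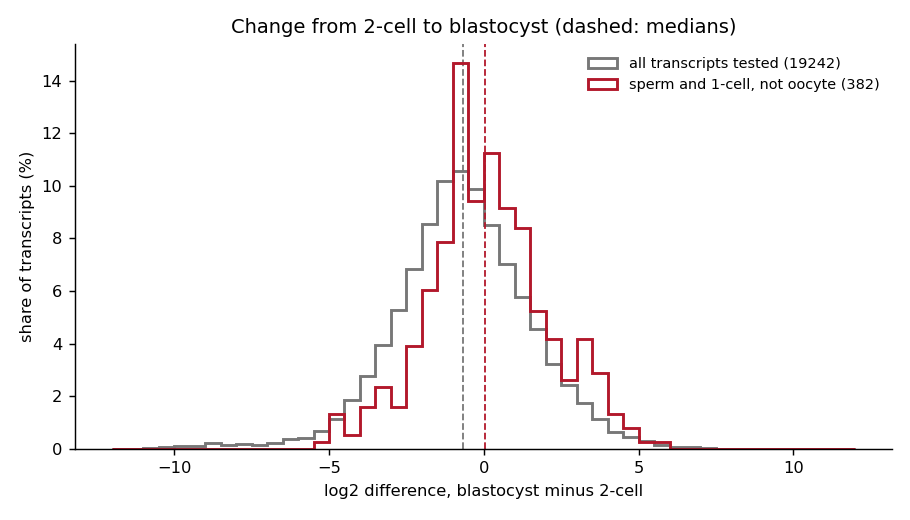
Histograms of the log2 difference between blastocyst and 2-cell embryos, as a share of the transcripts tested, for the 382 transcripts (red) and all 19242 (grey). Dashed lines mark the medians, 0.04 and -0.68.

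Among the rises, Cstb, an inhibitor of lysosomal cathepsins, was at 13 and 425 TPM at 2-cell, 253 and 237 in 4-cell embryos, 672 and 586 at 8-cell, then 2926 and 1349 in blastocysts. Both blastocyst libraries were above both 2-cell libraries, with a log2 difference of 4.69 ± 1.36 (SE) and a limma adjusted p of 0.037, which was 0.0717 with the spread weighted by stage. Cnpy2, a chaperone of the endoplasmic reticulum, was at 1.81 and 3.66 TPM at 2-cell and 96.1 and 84.2 at blastocyst, a log2 difference of 4.65 ± 0.64 with adjusted p of 0.00244 by limma. It was called in all 18 fits, as were Gm15459, Gm12735, Gm17586 and Chtop.
Slc37a2, a sugar phosphate transporter, was at 0 and 5.29 TPM at 2-cell and 149 and 115 at blastocyst (limma adjusted p = 0.00833, and 0.0937 weighted). Its member was 1 exon of 275 bases. Tradd, the adaptor of TNF receptor 1, was at 2.96 and 1.16 TPM at 2-cell and 28.1 and 136 at blastocyst (limma adjusted p = 0.0107, and 0.094 weighted). Gm15459, a processed pseudogene, was at 24 and 22.6 TPM at 2-cell and 1799.7 and 605 at blastocyst (limma adjusted p = 0.00204).

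Among the falls, Chtop went from 70 and 63.5 TPM at 2-cell through 26.3 and 22.6 in 4-cell embryos and 7.8 and 6.94 at 8-cell to 1.38 and 2.27 at blastocyst. The log2 difference was -4.60 ± 0.58 with limma adjusted p of 0.00156, and the libraries of each stage lay below those of the stage before. Gm12735, an antisense gene, fell from 108 and 38.5 TPM at 2-cell to 1.37 and 1.06 at blastocyst (limma adjusted p = 0.00254), after 7.29 and 4.12 in 1-cell embryos. A new isoform of Sipa1l1, a GTPase activator for Rap, fell from 60.4 and 36.9 to 0.458 and 1.24 TPM (limma adjusted p = 0.00204).
Gm17586, a lincRNA that lies opposite Mafg, went from 149.7 and 89.6 to 3.61 and 2.74 TPM (limma adjusted p = 0.00143). Gm1995, a processed pseudogene, went from 26.6 and 192 to 1.27 and 0.444 TPM (limma adjusted p = 0.00593). A new Prkca isoform of 2 exons, opposite to exons of Apoh, went from 124 and 16.4 to 0.124 and 1.16 TPM (limma adjusted p = 0.0101, and 0.0551 weighted). Sp110 fell too, from 20 and 21.3 to 2.41 and 1.05 TPM (limma adjusted p = 0.0129, and 0.12 weighted).

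The members with the highest blastocyst level were Crxos, Cstb, Mt2, Rps2-ps10 and Rpl18. Crxos, a homeobox gene of early embryos, was at 6.34 and 2.9 TPM in 1-cell embryos, 1.75 and 1.63 in sperm and 0 in both oocyte libraries. It then was at 130.1 and 978 TPM at 2-cell, 4370.2 and 4235 in 4-cell embryos, 8325 and 4688 at 8-cell, then 5504 and 666 in blastocysts, and the change from 2-cell to blastocyst did not pass (limma adjusted p = 0.175). Mt2, a metallothionein that binds zinc and copper, was at 10.6 and 2.83 TPM in 1-cell embryos and 2356 and 3205 in 4-cell embryos. Rpl18, of the large ribosomal subunit, was at 9.04 and 1.91 TPM in 1-cell embryos, 72 and 92.5 at 2-cell and 1284 and 1229 at blastocyst (log2 difference 3.93 ± 0.60, limma adjusted p = 0.00365).

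**Figure D5:**
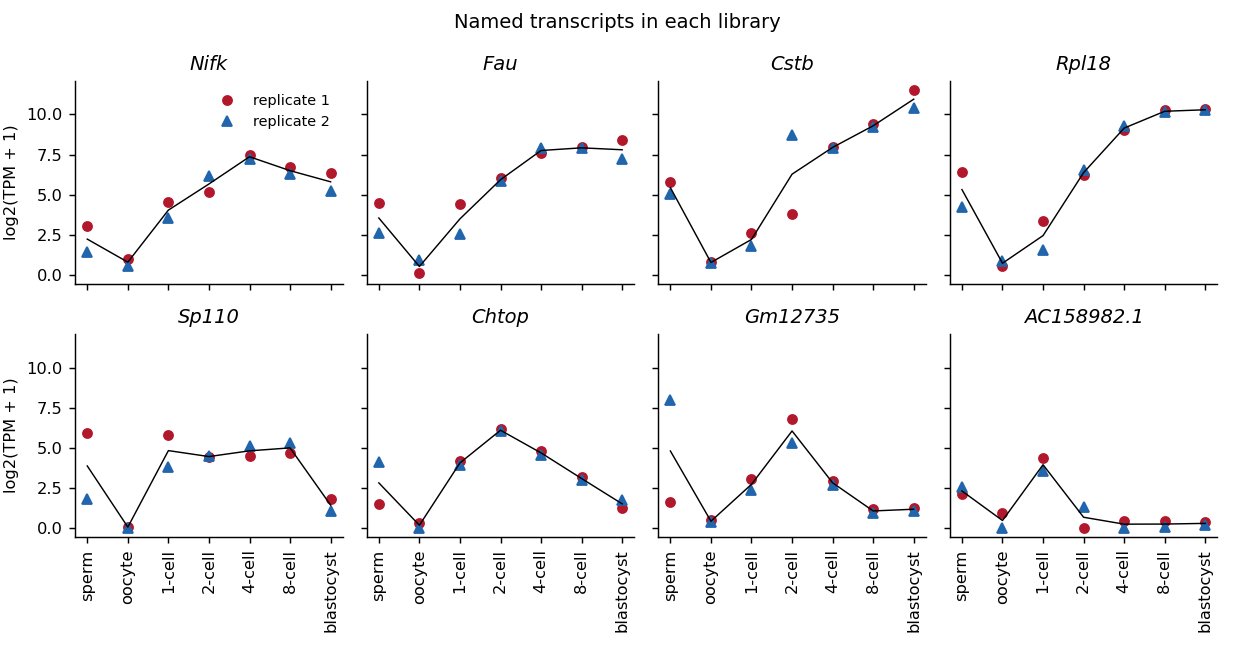
log2(TPM + 1) of 8 named transcripts in each library, with circles for replicate 1, triangles for replicate 2 and a line through the means. Nifk, Fau, Cstb and Rpl18 stay high after the 2-cell stage, Sp110, Chtop and Gm12735 end low at blastocyst, and AC158982.1 is highest in 1-cell embryos.

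Consecutive stages gave no called member in limma. From 2-cell to 4-cell, 0 of 19242 transcripts passed (0% of all tested). At an unadjusted p under 0.05 in limma were 80 of the 382 members (20.9%), against 22.7% of all tested. From 4-cell to 8-cell, 0 members passed against 0.229% of all tested higher and 1.71% lower. At an unadjusted p under 0.05 were 32 members (8.38%), against 14.6% of all tested. From 8-cell to blastocyst, 0 members passed against 0.0104% in each direction, with 51 unadjusted (13.4%, against 12.5% of all tested). The count from 4-cell to 8-cell depended on how the spread was pooled, since weighting by stage called 41 members higher and 50 lower, and the 4 libraries of these stages alone called 21 and 31. Over all transcripts tested, weighting called 7.66% and 24% higher and lower, and the 4 libraries 5.19% and 17.4%. With both libraries of each stage kept, other settings gave up to 19 called members from 2-cell to 4-cell and up to 8 from 8-cell to blastocyst. Quantile normalization gave the 19, where 3.32% of all tested were higher and 3.98% lower. From 8-cell to blastocyst, weighting by stage called 0.795% of all tested higher and 1.54% lower. Leaving out 1 library also moved these counts.

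By gene groups defined by name, genes of cytosolic ribosomes counted 16 members of 237 transcripts (6.75%), where all merged transcripts had 400 of 22612. The share was 2.21% in oxidative phosphorylation, 3.70% in zinc finger genes and 1.55% in genes with Riken or Gm names. It was 1.74% in RNA binding and splicing, 1.13% in ubiquitin and proteasome genes and 4.55% in histone genes. These shares were not tested. The ribosomal prefix also takes in Rps6kb2, which is a kinase, and 2 processed pseudogene names besides Rps2-ps10. From 2-cell to blastocyst 2 of the 16 rose, Rpl18 and Rps2-ps10, and 0 fell, where the group as a whole had 59 of 224 higher and 4 lower. The median log2 difference was 1.00 for the members and 1.61 for the group. With the spread weighted by stage the adjusted p of limma was 0.0389 for Rpl18 and 0.0964 for Rps2-ps10. Rpl24 was at 1.64 and 1.18 TPM in 1-cell embryos and 899 and 783 at 8-cell, and a new isoform of Rps12 was at 224 and 189 TPM at 8-cell and 19.6 and 8.38 in blastocysts.
Of 4 members in the oxidative phosphorylation group, Atp5j, Ndufa9 and Ndufaf3 rose. Its prefixes also take in assembly factors, here Ndufaf3 and Sdhaf3. Ndufa9, a subunit of complex I, went from 18.2 and 44.5 to 279 and 126 TPM (limma adjusted p = 0.0265), and the group as a whole had 65 of 172 higher and 5 lower. Among 10 zinc finger members, Zbtb7b alone passed, at 3.23 and 9.23 TPM at 2-cell and 54.2 and 62.7 at blastocyst (limma adjusted p = 0.0269), where the group had 4 of 261 higher and 41 lower. Atp5j, Ndufa9, Ndufaf3 and Zbtb7b were not among the 10 members called with the spread weighted by stage. Of 5 members in RNA binding and splicing, 6 in ubiquitin and proteasome genes and 2 histone genes, 0 passed in limma and 0 had an unadjusted p under 0.05. The groups as a whole had 16 higher and 14 lower of 263, 30 and 86 of 479, and 6 and 1 of 38. Of all 19242 tested, 25.3% passed from 2-cell to blastocyst and 39.8% had an unadjusted p under 0.05 in limma. Genes with Riken or Gm names had 27 members, of which 25 were tested, 2 rose and 4 fell, where the group had 59 of 1205 higher and 315 lower. Olfactory and vomeronasal receptors had 0 members of 5 transcripts.

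A few members were higher in 1-cell embryos than at any later stage, with sperm left out of the count. In 10 of the 400 (2.50%), both 1-cell libraries were above all 8 later libraries. The share was 18.0% of the 12107 transcripts at 1 TPM or more in both 1-cell libraries. It was 16.6% of the 223 not at 1 TPM in both sperm libraries. AC158982.1, a noncoding transcript of 4 exons (chr14:123169181-123176130, plus strand), was at 19 and 10.5 TPM in 1-cell embryos, 3.19 and 4.68 in sperm and 0.842 and 0 in oocytes, where its locus had 6.49 and 2.27. It was then at 0 and 1.44 TPM at 2-cell and 0.277 and 0.125 at blastocyst, under both sperm values. Slc4a1ap had 8.69 and 11 TPM in 1-cell embryos and 0 and 0 in 4-cell embryos. Pigc, of GPI anchor synthesis, had 15.4 and 6.45 TPM in 1-cell embryos and 2.53 and 2.02 in 4-cell embryos. The others were Nckap1l, Cd200, Sirpb1c, Cage1, Rarres2, a transcript antisense to Msi2 and an intronic transcript, all under 4 TPM in both 1-cell libraries.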

How the data were processed

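Short-read cDNA libraries of sperm, oocytes and embryos were quantified by the authors with Salmon against the merged long-read transcripts, and the TPM values were deposited per transcript. TPM keeps no depth. The paper lists the total number of sequences of each short-read library, and in some stages this number differed widely between replicates. These totals were not used here, and the effect of depth on the values was not tested. The exon coordinates of the merged annotation and of the 7 long-read pools were deposited on mm10. Other tools in the submitters' processing notes are GSNAP, STAR and Cufflinks. A second deposited set of TPM values, over each stage's own transcripts, was not used. The title was followed where 8-cell titles and file names number replicates differently.

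The members and gene lists were chosen with earlier results of these data known. Genes were named by same-strand exon overlap with GENCODE vM21. A transcript was in a pool when its intron chain was identical, or for single exons when 80% of the longer length was shared. Named genes were the 10 highest in 1-cell embryos, the 5 highest in sperm, at blastocyst and among spliced transcripts without a gene, the 5 largest rises and falls with one direction in all pairs of libraries, and those at the thresholds, of which 1 is not reported here. Others were chosen after their values were seen. Levels of 2-cell to blastocyst libraries were fitted in limma 3.58.1 on log2(TPM + 1), so fold changes of low transcripts are understated. The script was tested on simulated data. Alternatives covered the thresholds, pseudocount, filter, normalization, weights, libraries in the fit and each library left out.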

Additional observations from a re-analysis of the deposited data

How the results depend on the processing

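Depth cannot be read from TPM, and a threshold of 1 TPM decides many members. The number of transcripts by the rule was 120 with 2 TPM asked of sperm and 1-cell libraries, 48 with under 0.1 TPM in oocytes, and 440 to 929 with 1 library left out of the rule: 929 and 914 without oocyte replicates 1 and 2, and 918 without 1-cell replicate 2. The counts of members at 1 TPM or more in later stages stayed within 1.5 times, and with 1 library left out were 346 to 381 at 2-cell, 352 to 354 at 4-cell, 352 to 353 at 8-cell and 345 to 351 at blastocyst.

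From 2-cell to blastocyst, where 77 members were called, 10 were with the spread weighted by stage, 6 with the 4 libraries of both stages, and 38 to 104 with 1 library left out. Leaving out any 4-cell, 8-cell or blastocyst library brought it to 38 to 49. Quantile normalization called 74 higher and 23 lower, so the split of directions moved. For consecutive stages the main count was 0. From 2-cell to 4-cell it was 2 without a filter, 2 with a filter of 5 TPM, 19 with quantile normalization, 10 with 12 libraries and 0 to 40 with 1 library left out, 27 and 40 of them without 2-cell replicates 1 and 2. From 4-cell to 8-cell it was 1 without a filter, 1 with 5 TPM, 2 with quantile normalization and 1 with 12 libraries. With the spread weighted it was 91, and with 4 libraries 52. Over all tested, weighting called 7.66% and 24.0% higher and lower, and the 4 libraries 5.19% and 17.4%. The other settings named called at most 1.01% and 2.44%. From 8-cell to blastocyst it was 2 with quantile normalization, 8 weighted, 8 with 12 libraries and 0 to 9 with 1 left out. The causes were not tested. A stage left with 1 library was assumed to vary like the others.

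Replicate numbers were shared between stages but did not pair the libraries, whose deviations correlated between -0.50 and 0.42. With the replicate number as a block, 35 of 382 members were higher and 25 lower from 2-cell to blastocyst. Of all tested, 5.43% were higher and 13.1% lower. Of the named members' alternative values, 504 kept their side of the threshold, 33 lost it, 7 gained it and 0 reversed.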
